A study of Mus musculus with 11 samples.

Results

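Interleukins are secreted proteins through which blood and tissue cells signal to each other, and the accessible sites assigned to their genes and to those of their receptors were examined in mouse haematopoietic stem cells (HSCs). Members were all peaks of the assay for transposase-accessible chromatin (ATAC-seq) whose nearest gene, by its mouse gene identifier, has a symbol that starts with Il and a digit, with the gene of the IL-7 receptor alpha chain and that of the common gamma chain left out. The rule found 360 of the 94410 peaks, at 73 genes. It used no measured value. A further 9 symbols that meet the rule had no peak assigned to them, among them Il23a, Il25 and Il13ra2.

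All 11 libraries came from HSCs purified from the bone marrow of mice of the genotype Gfplc3/Gfplc3, which carry GFP fused to the autophagosome protein LC3, and all were isolated at steady state. The 5 young libraries were of unfractionated HSCs. The old libraries were 3 pairs sorted by GFP: AThi HSCs have low GFP and were engaging autophagy, the recycling of cell contents through the lysosome, and ATlo HSCs of the same pair have high GFP. Old and young groups therefore differ in age and in whether they were sorted by GFP, and these cannot be told apart. How many animals made up a library, and their age, is not given in the sources used here, so each p-value reflects only how far these libraries spread, which may be technical. A lower peak from fewer cells with the site open cannot be told apart from less opening in each cell.

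ATAC-seq counts DNA fragments cut out by a transposase, which enters where DNA is not wrapped tightly, so a peak marks a promoter, an enhancer or another open site. Interleukins are grouped by the receptors they share. Most of the IL-6 family signals through gp130, and the IL-2 and IL-4 group through the common gamma chain. IL-3 and IL-5 signal through the beta common chain, and all of these use JAK kinases and STAT factors. IL-1, IL-18, IL-33 and the IL-36 group use receptors of the Toll/IL-1 type, which act through MyD88 and NF-kB. HSCs carry several of these receptors: IL-1 drives HSCs toward myeloid output, and IL-3 and IL-6 push progenitors to divide.

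The promoter sequences of 5 genes are printed because the results turn on the peaks over their start sites. Il13ra1, a receptor chain for IL-13, and Il17d, a cytokine of the IL-17 family, had the promoter peaks over a start site that were higher in both old groups. Il1r2, the decoy receptor for IL-1, had the promoter peak over a start site that was lower in AThi HSCs. The Il1r2 window printed here belongs to another RefSeq start site, downstream of the start under that peak, and lies outside the peak. Il6ra, the IL-6 receptor alpha chain, had a promoter peak that did not pass the test beside 2 intronic peaks that rose, and Il6 itself is the ligand. Each sequence is the 250 bases before the start site, 5′ to 3′ on the gene's strand, from RefSeq (GRCm38.p6), at chrX:36111858-36112107, chr14:57524579-57524828, chr1:40085843-40086092, chr3:89913197-89913446 and chr5:30012864-30013113, in the order printed. Capitals mark matches to 7 motifs searched on both strands, which may overlap each other. The motif used for AP-1 was TGANTCA, that of the GATA family was written as AGATAA, and STAT sites were searched as TTCNNNGAA. For ETS factors the letters were AGGAAGT and for RUNX factors they were TGTGGTT, while longer motifs stood for NF-kB and IRF.
Il13ra1: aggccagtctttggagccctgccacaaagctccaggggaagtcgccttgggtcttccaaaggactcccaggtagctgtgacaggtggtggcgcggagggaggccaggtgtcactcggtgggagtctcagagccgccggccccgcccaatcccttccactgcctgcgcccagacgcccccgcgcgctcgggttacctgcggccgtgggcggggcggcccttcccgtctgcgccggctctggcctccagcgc
Il17d: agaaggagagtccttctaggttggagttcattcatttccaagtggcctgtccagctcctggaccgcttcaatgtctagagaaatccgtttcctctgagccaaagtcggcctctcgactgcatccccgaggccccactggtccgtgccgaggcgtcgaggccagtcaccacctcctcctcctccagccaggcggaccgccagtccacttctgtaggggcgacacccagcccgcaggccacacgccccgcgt
Il1r2: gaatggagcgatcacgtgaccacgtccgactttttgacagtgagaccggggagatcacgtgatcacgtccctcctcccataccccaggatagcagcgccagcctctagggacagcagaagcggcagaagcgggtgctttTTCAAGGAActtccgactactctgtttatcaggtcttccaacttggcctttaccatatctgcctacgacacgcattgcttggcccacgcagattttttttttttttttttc
Il6ra: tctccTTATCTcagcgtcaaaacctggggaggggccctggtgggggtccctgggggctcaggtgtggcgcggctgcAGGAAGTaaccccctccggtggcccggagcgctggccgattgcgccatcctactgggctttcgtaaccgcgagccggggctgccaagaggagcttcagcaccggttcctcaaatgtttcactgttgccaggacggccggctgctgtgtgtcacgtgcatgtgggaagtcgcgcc
Il6: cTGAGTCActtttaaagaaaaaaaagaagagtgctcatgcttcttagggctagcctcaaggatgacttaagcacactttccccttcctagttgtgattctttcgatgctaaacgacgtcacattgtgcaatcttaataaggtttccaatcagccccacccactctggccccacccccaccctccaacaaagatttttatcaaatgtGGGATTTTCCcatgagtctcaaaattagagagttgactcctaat

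The Il13ra1 and Il17d windows held none of the 7 motifs, and their GC contents were 70.8% and 62.4%. The Il1r2 window held a STAT match that starts 111 bases before the RefSeq start site of that window, which is not the start under the called peak. The Il6ra window held a GATA match at 245 and an ETS match at 174 bases before its start site. In the Il6 window an NF-kB match stood 44 bases before the start site, and an AP-1 match 249 bases before it. Windows were found for 59 of the 73 genes, 73 windows in all because some genes have several starts. AP-1 was in 12 of them, or 16.4%, against 6.75% of the 32851 windows in the RefSeq table. The NF-kB motif was in 2 of the 73, or 2.74%, against 0.356% of all windows. GATA was in 15.1% against 9.99%, ETS in 11% against 7.69%, STAT in 9.59% against 7.02%, RUNX in 8.22% against 4.4%, and IRF in 2.74% against 2.98%. These shares describe sequence only, and no test was made of them.

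Against young HSCs, 45 interleukin peaks at 31 genes passed the test in one or both old groups, and 42 genes had no peak that passed. A peak was called higher or lower when the adjusted p of the authors' deposited DESeq2 Wald test was under 0.05. In AThi HSCs 21 of the 357 peaks with an adjusted p rose, or 5.88%, against a background of 7.57% of all peaks, and 15 fell, or 4.20%, against 2.74%. In ATlo HSCs 18 rose, or 5.04% against 6.88%, and 10 fell, or 2.80% against 2.54%. The share higher was thus below that of all peaks in both old groups, and the share lower was above it in AThi HSCs and near it in ATlo HSCs. Over all 360 peaks the median log2 difference was -0.09 in AThi and -0.10 in ATlo HSCs, beside -0.04 and -0.03 for all peaks, so most interleukin sites lay near the common level. Both comparisons share the 5 young libraries.

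The balance of higher to lower calls depended on the scaling. As deposited, 58.3% of the AThi calls and 64.3% of the ATlo calls at interleukin genes were higher, beside 73.4% and 73% for all peaks. With the log2 values shifted so that the median of all peaks is 0, these shares were 68.6% and 71.4%. For all peaks they were then 80.1% and 79.8%. The 2289 promoter peaks in the top 10% by level had a median log2 difference of -0.22 in AThi and -0.30 in ATlo HSCs. With this median set to 0 the interleukin shares were 87.8% and 97.7%, beside 93.8% and 98.1% for all peaks. Every higher call as deposited was also called under both scalings. Of the 15 lower calls in AThi HSCs, 6 were still called after the second scaling, and of the 10 in ATlo HSCs 1 was, so the lower calls described here are lower relative to the deposited scale. The value in each library was not used here because the tables give only fitted differences, so whether the groups overlap cannot be said. Levels given for a group are normalised counts implied by the authors' mean and log2 differences, and 3 levels given in a row are those of young, AThi and ATlo HSCs, in that order.

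**Figure D1:**
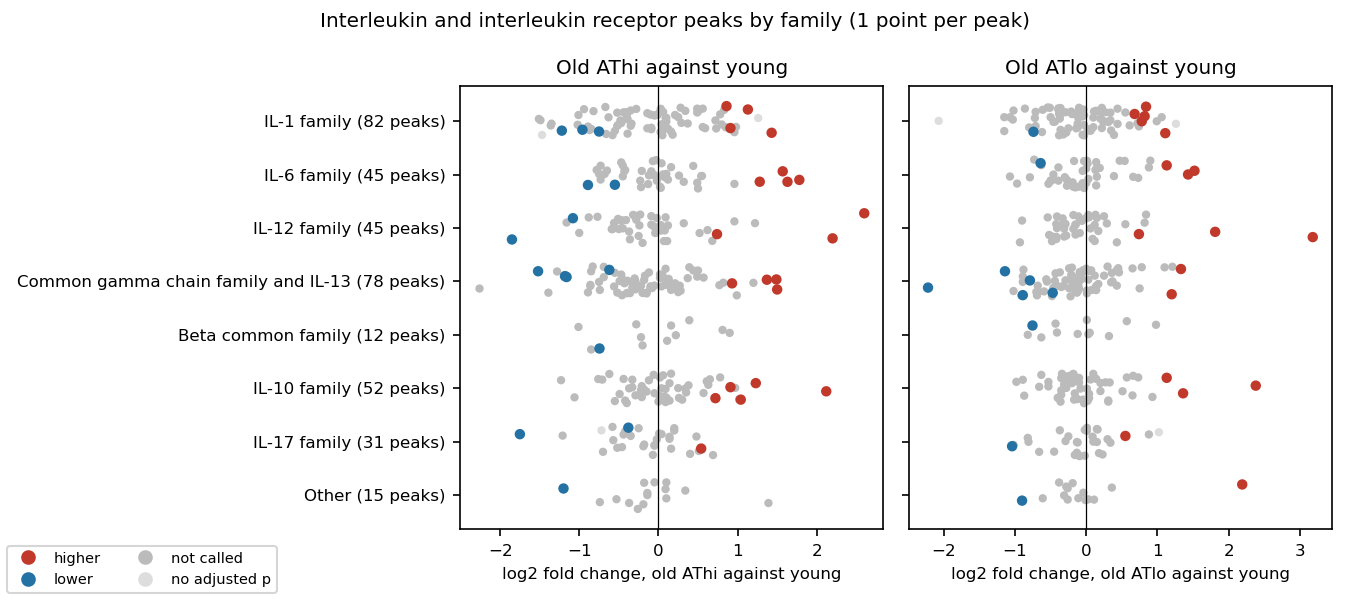
Log2 fold change of each interleukin peak against young HSCs, by family, for AThi (left) and ATlo (right); 1 point per peak, red for higher, blue for lower, grey for not called and pale grey for no adjusted p. Most points of each family are grey, and the Il23r peak of the IL-12 family lies farthest to the right in both panels, at 2.60 and 3.18.

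By role, the shares of peaks called at ligand genes lay near those of all peaks in AThi HSCs, and receptor genes had a smaller share higher and a larger share lower than all peaks in both old groups. Of 146 peaks at 32 ligand genes, 11 rose in AThi HSCs, or 7.59% against 7.57% of all peaks, and 3 fell, or 2.07% against 2.74%. In ATlo HSCs 9 rose, or 6.21% against 6.88%, and 1 fell, or 0.69% against 2.54%. Of 189 peaks at 35 receptor genes, 9 rose in AThi HSCs, or 4.81% against 7.57%, and 10 fell, or 5.35% against 2.74%. In ATlo HSCs 8 rose, or 4.28% against 6.88%, and 9 fell, or 4.81% against 2.54%. At the 4 antagonist or decoy genes, 1 of 23 peaks rose and 2 fell in AThi HSCs, or 4.35% and 8.70%, and in ATlo HSCs 1 rose and 0 fell by DESeq2, with 3 lower at an unadjusted p under 0.05. The ATlo call was a promoter peak of Il1rn, the IL-1 receptor antagonist, at 47.1, 69.4 and 75.6, with a log2 of 0.68 (SE 0.23, adjusted p = 0.0406) per the authors' deposited table. Differences between roles were not tested. Of 19 exonic peaks, 3 fell in AThi HSCs and 3 in ATlo HSCs, or 15.8% each, and 0 rose by DESeq2, also at an unadjusted p under 0.05, beside 3.23% and 2.27% lower and 9.11% and 8.98% higher among all exonic peaks. These were the same peaks in both: exon 4 of 13 of Il17ra, exon 6 of 7 of Il16 and exon 8 of 9 of Il21r. Among 70 promoter peaks, 4 rose and 4 fell in AThi HSCs, or 5.71% each, beside 7.12% and 4.44% of all promoter peaks. In ATlo HSCs 4 rose, or 5.71% against 5.69%, and 2 fell, or 2.86% against 5.98%.

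In the IL-6 family, 4 of 45 peaks at 8 genes rose and 2 fell in AThi HSCs, and 3 rose and 1 fell in ATlo HSCs. These were 8.89% and 4.44% in AThi HSCs, against 7.57% and 2.74% of all peaks. In ATlo HSCs they were 6.67% and 2.22%, against 6.88% and 2.54%. The change stood at sites away from the promoters of both receptor genes. A peak in intron 1 of 9 of Il6ra, 13.3 kb into the gene (chr3:89806560-89807185, mm39), had an implied level of 24.9 in young, 73.9 in AThi and 54.6 in ATlo HSCs. In the authors' deposited tables it rose 2.97-fold in AThi HSCs (log2 1.57, SE 0.26, adjusted p = 8.17e-08) and 2.19-fold in ATlo HSCs (log2 1.13, SE 0.26, adjusted p = 0.000483). Both old groups were thus above young, with a gap of several SEs. A further Il6ra peak in intron 9 (chr3:89783852-89784076) rose by a log2 of 1.28 (SE 0.32, adjusted p = 0.00196) in AThi HSCs per the authors' deposited table, and its value in ATlo HSCs, 0.90 (SE 0.33, adjusted p = 0.0598), did not pass. The promoter peak of Il6ra had levels of 334, 357 and 301 and log2 differences of 0.10 (SE 0.15) and -0.15 (SE 0.15) per the authors' deposited tables, neither of which passed.

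Il6st encodes gp130, the signalling chain used by most of the family. A peak 9.7 kb upstream of its start site (chr13:112590485-112590863) had levels of 6.57 in young, 20.3 in AThi and 17.7 in ATlo HSCs. It rose by a log2 of 1.63 (SE 0.45, adjusted p = 0.00491) in AThi and 1.43 (SE 0.44, adjusted p = 0.0185) in ATlo HSCs per the authors' deposited tables. A stronger peak 23.7 kb upstream (chr13:112575730-112576953) went the other way, with levels of 140, 95.8 and 89.9. It fell by 0.55 (SE 0.20, adjusted p = 0.0471) and by 0.64 (SE 0.19, adjusted p = 0.0138) on the log2 scale per the authors' deposited tables. On the deposited scale, sites of 1 gene thus moved in opposite directions. The lower call was lost in AThi HSCs under both scalings, with log2 values of -0.51 and -0.33. In ATlo HSCs it was lost under the second scaling, at -0.34. The higher call of the peak 9.7 kb upstream held under both scalings in both old groups. The Il6st promoter peak, at 245, 224 and 204, did not pass.

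Il31, a cytokine known for its role in itch, had the promoter peak with the largest rise of the family. This peak, 0.3 kb inside the gene (chr5:123619887-123620347), had levels of 14.9, 51.1 and 42.6. It rose 3.44-fold in AThi HSCs (log2 1.78, SE 0.30, adjusted p = 1.9e-07) and 2.86-fold in ATlo HSCs (log2 1.52, SE 0.30, adjusted p = 2.2e-05) per the authors' deposited tables. Il11 encodes a cytokine that signals through gp130. A promoter peak of this gene, 1.6 kb upstream (chr7:4782774-4783479), fell by 0.89 (SE 0.31, adjusted p = 0.0447) in AThi HSCs per the authors' deposited table. The ATlo value of -0.79 (SE 0.30, adjusted p = 0.0675) did not pass in the same source. The AThi call of this peak was lost under both scalings, with log2 values of -0.85 and -0.67. The promoter peaks of Il6 (levels 134, 126 and 135), Il11ra1 (161, 158 and 150) and Il27ra (137, 142 and 134) stayed within 0.10 of 0 on the log2 scale in both comparisons per the authors' deposited tables and did not pass.

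**Figure D2:**
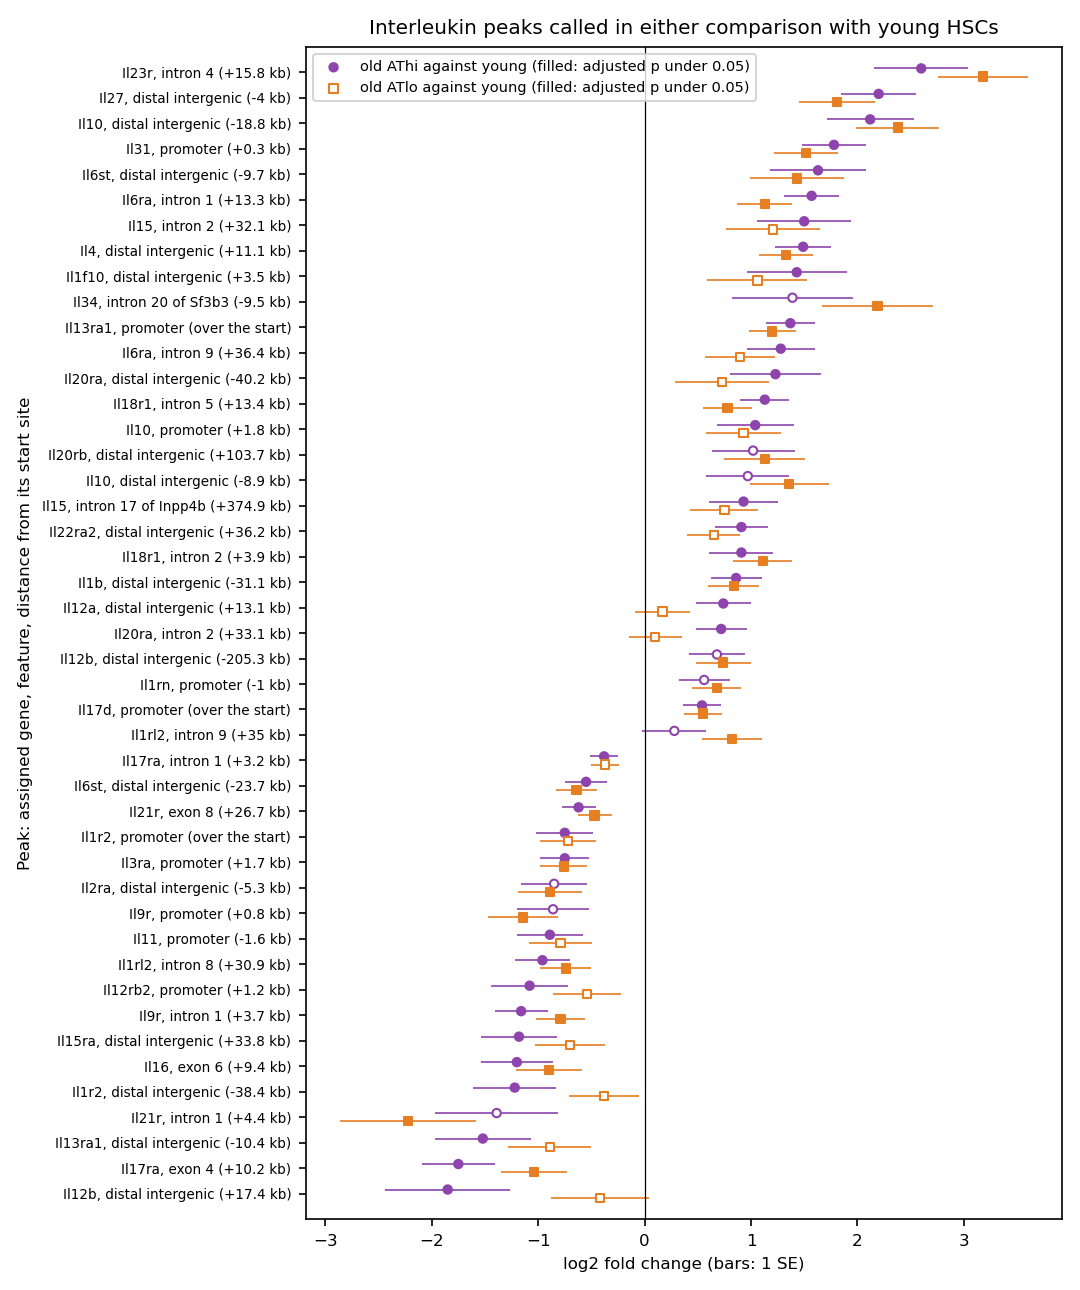
Log2 fold change against young HSCs, with 1 SE, for the 45 interleukin peaks called in AThi (circles) or ATlo (squares) HSCs, filled where the adjusted p was under 0.05; each row names the assigned gene, the feature and the distance from the start site. The values run from 2.60 and 3.18 at the Il23r intron to -1.85 at an Il12b distal peak in AThi and -2.22 at an Il21r intron in ATlo HSCs.

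In the IL-1 family, 4 of 82 peaks at 18 genes rose in AThi HSCs and 3 fell, and in ATlo HSCs 5 rose and 1 fell. Of the 80 with an adjusted p these were 5% and 3.75% in AThi HSCs, against 7.57% and 2.74% of all peaks. In ATlo HSCs they were 6.25% and 1.25%, against 6.88% and 2.54%. The higher calls included both called peaks of Il18r1, the ligand-binding chain of the IL-18 receptor. The peak in its intron 5 (chr1:40518565-40519152) had levels of 39.7 in young, 86.7 in AThi and 68.3 in ATlo HSCs. It rose by a log2 of 1.13 (SE 0.23, adjusted p = 4.28e-05) in AThi and 0.78 (SE 0.23, adjusted p = 0.0127) in ATlo HSCs per the authors' deposited tables. The peak in its intron 2 (chr1:40509090-40509529), at 21.9, 41.2 and 47.5, rose by 0.91 (SE 0.30, adjusted p = 0.0265) and 1.11 (SE 0.28, adjusted p = 0.00241) per the authors' deposited tables. The Il18r1 promoter peak did not pass, with a log2 of 0.34 (SE 0.24, adjusted p = 0.411) in AThi HSCs per the authors' deposited table.

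Among the ligands, Il1b, the inflammatory cytokine IL-1 beta, had a distal peak 31.1 kb upstream (chr2:129244111-129245232) at 53.1 in young, 96.1 in AThi and 95.3 in ATlo HSCs. It rose by a log2 of 0.86 (SE 0.25, adjusted p = 0.00807) and 0.84 (SE 0.24, adjusted p = 0.00915) per the authors' deposited tables, and both old groups stood at nearly the same level. The Il1b promoter peak, at 108, 101 and 106, did not pass. Il18 encodes IL-18, and its promoter peak was at 95.2, 134 and 125. With log2 differences of 0.49 (SE 0.18, adjusted p = 0.0567) and 0.39 (SE 0.18, adjusted p = 0.152) per the authors' deposited tables, it did not pass. Near Il1f10, which encodes IL-38 of the IL-1 family, a peak 3.5 kb downstream of the start (chr2:24184686-24185039) rose by a log2 of 1.43 (SE 0.47, adjusted p = 0.0278) in AThi HSCs per the authors' deposited table. No promoter peak was assigned to Il1a, and the strongest of its 3 distal peaks, at a mean level of 66.6, had a log2 of 0.18 (adjusted p = 0.713) in AThi HSCs per the authors' deposited table.

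The receptors of the family lie together on chromosome 1, where Il1r2, Il1r1, Il1rl2, Il1rl1, Il18r1 and Il18rap hold 40 peaks over 552 kb (chr1:40032472-40584163). Lower calls stood at Il1r2 and Il1rl2, and higher calls at Il18r1 and, in ATlo HSCs, also at 1 Il1rl2 peak. In AThi HSCs 2 of these peaks rose and 3 fell, and in ATlo HSCs 3 rose and 1 fell. Of the 39 with an adjusted p these were 5.13% and 7.69% in AThi HSCs, against 7.57% and 2.74% of all peaks. For ATlo HSCs they were 7.69% and 2.56%, against 6.88% and 2.54%. The median log2 over the 40 peaks was -0.40 in AThi and -0.17 in ATlo HSCs, beside -0.04 and -0.03 for all peaks. The peak over the start of Il1r2, which binds IL-1 without signalling (chr1:40123536-40124210), had levels of 87.7, 52.2 and 53.1. It fell by 0.75 (SE 0.27, adjusted p = 0.0497) in AThi HSCs, and the ATlo value of -0.72 (SE 0.26, adjusted p = 0.0547) did not pass per the authors' deposited tables. The AThi call sat at the threshold and was lost with the adjustment taken over every peak and under both scalings.

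A second Il1r2 peak, 38.4 kb upstream (chr1:40084788-40085500), fell by 1.22 (SE 0.39, adjusted p = 0.0243) in AThi HSCs per the authors' deposited table. Il1rl2 encodes the IL-36 receptor, and its peak in intron 8 (chr1:40394697-40395790) had levels of 72.9, 37.5 and 43.7. It fell by 0.96 (SE 0.26, adjusted p = 0.00418) in AThi and by 0.74 (SE 0.24, adjusted p = 0.0296) in ATlo HSCs per the authors' deposited tables. In intron 9, a weaker Il1rl2 peak rose in ATlo HSCs by a log2 of 0.82 (SE 0.28, adjusted p = 0.0366) per the authors' deposited table. Il1r1 encodes the signalling receptor for IL-1, and its promoter peak was at 183, 186 and 179, with log2 differences of 0.03 and -0.03 (SE 0.15 each) per the authors' deposited tables. Il1rap, the shared accessory chain encoded on chromosome 16, had a promoter peak at 359, 282 and 282, and its log2 of -0.35 (SE 0.15) in both comparisons per the authors' deposited tables did not pass (adjusted p = 0.12 and 0.116).

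**Figure D3:**
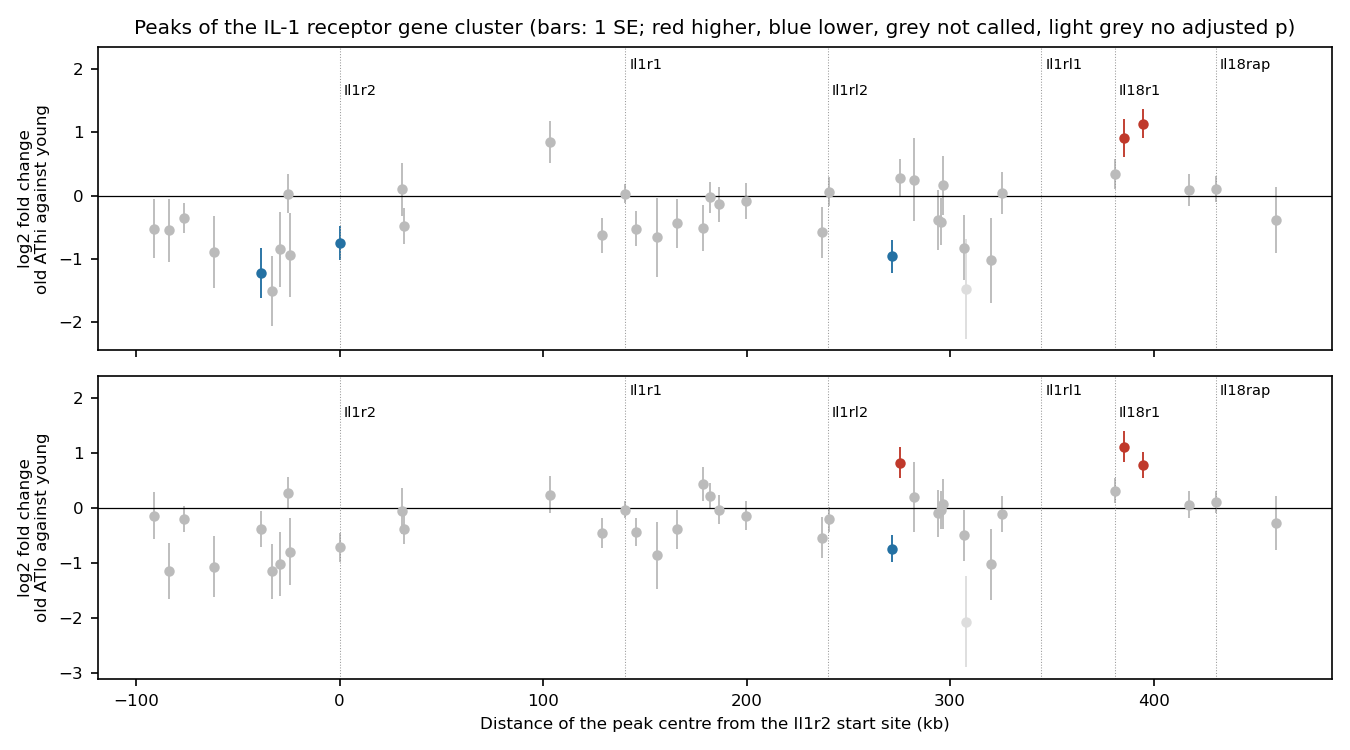
Log2 fold change against young HSCs, with 1 SE, of the peaks of the IL-1 receptor gene cluster by distance of the peak centre from the Il1r2 start site in kb, for AThi (top) and ATlo (bottom); dotted lines mark start sites, red is higher, blue lower, grey not called and pale grey without an adjusted p. The Il18r1 peaks at 385.4 and 395 kb are red in both panels, the one at 381 kb over its promoter is grey, and the Il1rl2 peak in intron 8 is blue in both.

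In the IL-12 family, 3 of 45 peaks at 6 genes rose in AThi HSCs and 2 fell. In ATlo HSCs 3 rose and 0 fell by DESeq2, with 2 lower at an unadjusted p under 0.05. The AThi calls were 6.67% higher and 4.44% lower, against 7.57% and 2.74% of all peaks. The ATlo calls were 6.67% higher and 0% lower, against 6.88% and 2.54%. The largest rise of any interleukin peak was in intron 4 of 10 of Il23r, the IL-23 receptor chain best known from T cells (chr6:67452512-67453052). Its implied level was 4.17 in young, 25.3 in AThi and 37.8 in ATlo HSCs, a weak peak in young cells. The authors' deposited tables gave a 6.07-fold rise in AThi (log2 2.60, SE 0.44, adjusted p = 3.34e-07) and a 9.05-fold rise in ATlo HSCs (log2 3.18, SE 0.42, adjusted p = 1.75e-11). Il27 encodes the p28 subunit of IL-27, and a peak 4.0 kb upstream of it (chr7:126198190-126198578) had levels of 9.24, 42.4 and 32.5. It rose by a log2 of 2.20 (SE 0.35, adjusted p = 5.71e-08) and 1.81 (SE 0.36, adjusted p = 2.41e-05) per the authors' deposited tables.

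Of the lower calls in the family, Il12b, which encodes the p40 subunit shared by IL-12 and IL-23, had a distal peak 17.4 kb downstream of the start (chr11:44308244-44308624) at 19.1, 5.29 and 14.2. It fell by 1.85 (SE 0.59, adjusted p = 0.0226) in AThi HSCs per the authors' deposited table. The ATlo value, -0.42 (SE 0.46, adjusted p = 0.657) per the authors' deposited table, did not pass. Il12rb2, an IL-12 receptor chain, had a promoter peak 1.2 kb inside the gene (chr6:67314503-67315487) that fell by 1.08 (SE 0.36, adjusted p = 0.0307) in AThi HSCs per the authors' deposited table, beside -0.54 (SE 0.32, adjusted p = 0.326) in ATlo HSCs in the same source. Its stronger peak over the start, at 151, 126 and 120, did not pass. Il12a, which encodes the p35 subunit, had 15 peaks, of which 1, 13.1 kb downstream of the start (chr3:68611854-68612333), rose in AThi HSCs (log2 0.74, SE 0.26, adjusted p = 0.0412 per the authors' deposited table).

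The genes whose receptors use the common gamma chain, together with IL-13, gave 4 higher and 4 lower calls among 78 peaks in AThi HSCs. That was 5.13% each, against 7.57% and 2.74% of all peaks. In ATlo HSCs 2 were higher and 5 lower, or 2.56% and 6.41% against 6.88% and 2.54%. Il13ra1 had the clearest promoter rise. Its peak over the start (chrX:35375462-35376367) had levels of 40.7 in young, 105 in AThi and 93.3 in ATlo HSCs. In the authors' deposited tables this was a 2.58-fold rise (log2 1.37, SE 0.23, adjusted p = 1.24e-07) and a 2.29-fold rise (log2 1.20, SE 0.22, adjusted p = 6.93e-06). A weaker Il13ra1 peak 10.4 kb upstream (chrX:35364538-35365364) fell by 1.52 (SE 0.45, adjusted p = 0.0105) in AThi HSCs per the authors' deposited table. Il4ra, the chain that pairs with Il13ra1 to bind IL-4 and IL-13, had a promoter peak at 179, 162 and 151 that did not pass.

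Among the ligands of the group, Il4 had a distal peak 11.1 kb downstream of the start (chr11:53496444-53497020) at 24.8, 69.9 and 62.5. It rose by a log2 of 1.49 (SE 0.26, adjusted p = 4.93e-07) and 1.33 (SE 0.25, adjusted p = 1.22e-05) per the authors' deposited tables. This was the 1 called peak among the 14 peaks of the chromosome 11 cluster that holds Il4, Il13, Il5 and Il3. That was 7.14% higher, against 7.57% of all peaks in AThi and 6.88% in ATlo HSCs. Il15, a cytokine that sustains natural killer and memory T cells, had a peak in intron 2 (chr8:83096683-83097085) at 7.88, 22.2 and 18.2. In the authors' deposited tables it rose in AThi HSCs (log2 1.50, SE 0.44, adjusted p = 0.0107), and the ATlo value of 1.21 (SE 0.44, adjusted p = 0.0578) did not pass. The Il15 promoter, at 130, 149 and 138, did not pass in either group.

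Lower calls in this group stood at receptor genes. Il9r, the IL-9 receptor, had an intron 1 peak (chr11:32145864-32146593) at 79.7, 35.5 and 46.2 that fell by 1.16 (SE 0.25, adjusted p = 0.00014) and by 0.79 (SE 0.23, adjusted p = 0.0114) per the authors' deposited tables. Its promoter peak (chr11:32149108-32149529), at 37.1, 20.5 and 16.8, fell by 1.14 (SE 0.33, adjusted p = 0.0122) in ATlo HSCs and had -0.86 (SE 0.34, adjusted p = 0.0834) in AThi HSCs per the authors' deposited tables. Il21r, with 16 peaks the gene that held the most, had an exon 8 peak (chr7:125229332-125230149) at 224, 145 and 162 that fell by 0.62 (SE 0.16, adjusted p = 0.00257) and by 0.47 (SE 0.16, adjusted p = 0.0319) per the authors' deposited tables. A weak Il21r peak in intron 1 (chr7:125207007-125207330) had levels of 15.7, 5.99 and 3.37 and fell by 2.22 (SE 0.64, adjusted p = 0.00995) in ATlo HSCs per the authors' deposited table. Single distal peaks fell near Il15ra, which presents IL-15, in AThi HSCs (log2 -1.18, SE 0.36, adjusted p = 0.0174) and near Il2ra, the IL-2 receptor alpha chain, in ATlo HSCs (log2 -0.89, SE 0.30, adjusted p = 0.037), both per the authors' deposited tables.

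The beta common family held 12 peaks, and 1, at Il3ra, fell in both old groups. That was 8.33%, against 2.74% of all peaks in AThi and 2.54% in ATlo HSCs. Il3ra encodes the IL-3 receptor alpha chain and had the strongest interleukin peak, over its start (chr14:8123120-8124307), at 377, 423 and 381, with log2 differences of 0.16 (SE 0.16, adjusted p = 0.591) and 0.01 (SE 0.16) per the authors' deposited tables. The lower peak, 1.7 kb inside the gene (chr14:8121091-8121553), had levels of 120, 71.4 and 71.0. It fell by 0.75 (SE 0.23, adjusted p = 0.0158) and by 0.76 (SE 0.22, adjusted p = 0.0129) per the authors' deposited tables. The start of Il3ra thus did not differ beyond its error while a neighbouring site fell by like amounts in both old groups.

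In the IL-10 family 5 of 52 peaks rose in AThi HSCs, or 9.62% against 7.57% of all peaks, and 3 in ATlo HSCs, or 5.77% against 6.88%, and 0 fell in either by DESeq2, with 2 lower in each at an unadjusted p under 0.05. Since 2.74% and 2.54% of all peaks fell, few lower calls would stand among 52 peaks at the common share. Il10 encodes an anti-inflammatory cytokine, and its peak 18.8 kb upstream (chr1:130928132-130928832) had levels of 6.91, 30.0 and 36.1. The authors' deposited tables gave a 4.34-fold rise (log2 2.12, SE 0.41, adjusted p = 9.33e-06) and a 5.22-fold rise (log2 2.38, SE 0.39, adjusted p = 1.5e-07). A second Il10 peak 8.9 kb upstream (chr1:130937929-130938692), at 12.0, 23.5 and 30.7, rose in ATlo HSCs (log2 1.36, SE 0.37, adjusted p = 0.00492) and did not pass in AThi HSCs (log2 0.97, SE 0.39, adjusted p = 0.0915) per the authors' deposited tables. On chromosome 10, Il22ra2, the soluble decoy for IL-22, and Il20ra, an IL-20 receptor chain, held 13 peaks. In AThi HSCs 3 of them rose, with a median log2 of 0.34 over the 13, and in ATlo HSCs 0 rose by DESeq2, 2 at an unadjusted p under 0.05, with a median of -0.08. The shares were 23.1% against 7.57% of all peaks in AThi HSCs, and 0% against 6.88% in ATlo HSCs. The AThi and ATlo values of this cluster were not shown to differ, since 0 of its peaks passed between them. The Il22ra2 peak (chr10:19533946-19534810), at 32.4, 60.8 and 50.9, had log2 differences of 0.91 (SE 0.25, adjusted p = 0.00492) and 0.65 (SE 0.25, adjusted p = 0.073) per the authors' deposited tables. For Il20rb, with 13 peaks, a distal one 103.7 kb away rose in ATlo HSCs (log2 1.13, SE 0.38, adjusted p = 0.0361 per the authors' deposited table). The receptor gene Il10rb had a promoter peak at 193, 149 and 151 that did not pass.

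In the IL-17 family 1 of 31 peaks rose and 2 fell in AThi HSCs, and 1 rose and 1 fell in ATlo HSCs. Of the 30 with an adjusted p these were 3.33% and 6.67% in AThi HSCs, against 7.57% and 2.74% of all peaks. In ATlo HSCs they were 3.33% each, against 6.88% and 2.54%. The higher peak was the wide one over the start of Il17d (chr14:57761939-57763706), at 120 in young, 174 in AThi and 176 in ATlo HSCs. It rose by a log2 of 0.54 (SE 0.18, adjusted p = 0.0349) and 0.55 (SE 0.18, adjusted p = 0.0272) per the authors' deposited tables. Il17ra encodes the receptor chain shared by most IL-17 cytokines, and its exon 4 peak (chr6:120450368-120451145) had levels of 84.3, 25.1 and 41.0. It fell by 1.75 (SE 0.34, adjusted p = 1.22e-05) and by 1.04 (SE 0.31, adjusted p = 0.0128) per the authors' deposited tables. A strong Il17ra peak in intron 1 (chr6:120443336-120444336), at 312, 241 and 242, fell by 0.38 (SE 0.13, adjusted p = 0.0483) in AThi HSCs per the authors' deposited table, while the promoter peak, at 167, 162 and 140, did not pass. The intron 1 call was lost under both scalings, with log2 values of -0.33 and -0.16.

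Among the remaining genes, Il16, which encodes a chemoattractant for CD4+ cells, had an exon 6 peak (chr7:83294681-83295299) at 42.2, 18.4 and 22.6. It fell by 1.20 (SE 0.34, adjusted p = 0.00778) and by 0.90 (SE 0.31, adjusted p = 0.0438) per the authors' deposited tables, and the Il16 promoter, at 161, 173 and 165, did not pass. Il34 encodes a second ligand of the CSF1 receptor. The peak assigned to it lies in intron 20 of the neighbouring gene Sf3b3 (chr8:111542029-111542298), at 4.44, 11.6 and 20.3, and rose in ATlo HSCs (log2 2.19, SE 0.52, adjusted p = 0.000838 per the authors' deposited table). Of 25 interleukin peaks inside another gene, this was the 1 called in ATlo HSCs, and 1 Il15 peak in Inpp4b was called in AThi HSCs. Each was a higher call, or 4%, against 6.88% of all peaks in ATlo and 7.57% in AThi HSCs.

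Most promoter peaks of the receptors did not differ beyond their error. Per kb of peak, the highest mean levels among promoter peaks were 329 at Il3ra, 253 at Il1rap, 249 at Il16, 249 at Il11ra1 and 204 at Il1r1. By count per peak, the 5 highest interleukin peaks were the promoters of Il3ra (391), Il6ra (332) and Il1rap (317), the Il17ra intron 1 peak (274) and a peak 4.8 kb upstream of Il10ra, the IL-10 receptor alpha chain (chr9:45185277-45186295, 271). Of these, the Il17ra peak passed, in AThi HSCs. The Il10ra peak had a log2 of -0.22 in both comparisons (adjusted p = 0.348 and 0.359 per the authors' deposited tables).

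**Figure D4:**
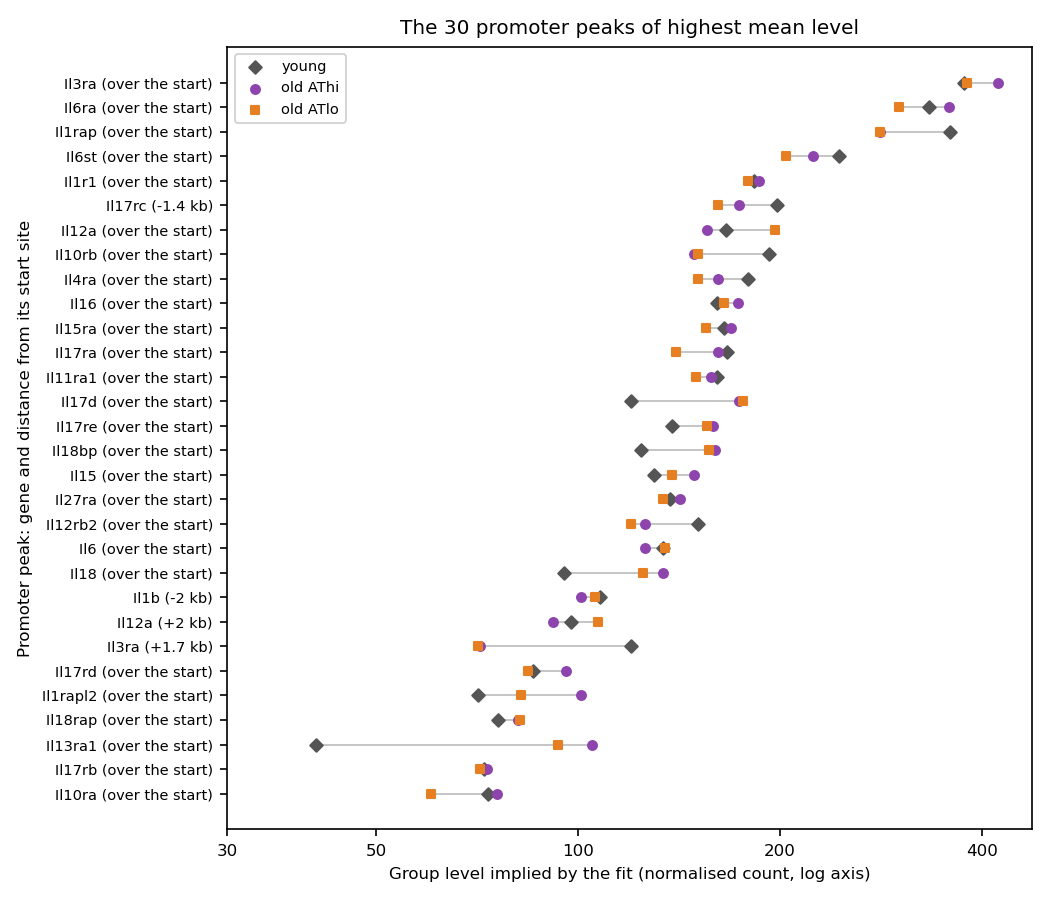
Group level implied by the authors' fit (normalised count per peak, log axis) of the 30 interleukin promoter peaks of highest mean level, for young (diamonds), AThi (circles) and ATlo (squares) HSCs, with no error shown. Il13ra1, at 40.7 in young against 105 and 93.3, and Il17d, at 120 against 174 and 176, lie to the right in both old groups. So does Il18, which did not pass. The Il3ra peak 1.7 kb inside the gene, at 120 against 71.4 and 71.0, lies to the left.

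Between AThi and ATlo HSCs, which share their old pairs, 0 interleukin peaks passed DESeq2's test at an adjusted p under 0.05, and 0% of all 94410 peaks did. At an unadjusted p under 0.05 there were 4 interleukin peaks, 1 higher and 3 lower in AThi, or 1.11%, beside 1683 of all peaks, or 1.78%. The smallest p was at an intron 1 peak of Il1r1 (chr1:40302322-40302688), with implied levels of 17.8 in AThi and 34.3 in ATlo HSCs. Its log2 difference of -0.94 (SE 0.39, 95% interval -1.70 to -0.18, unadjusted p = 0.0148) did not pass per the authors' deposited table. The Il12b peak that fell in AThi HSCs had a log2 of -1.43 (SE 0.64, 95% interval -2.68 to -0.17, unadjusted p = 0.0264), and the Il12a promoter, at 156 and 197, had -0.34 (SE 0.17, unadjusted p = 0.0494), neither passing per the authors' deposited table. The highest in AThi by p was the intron 2 peak of Il20ra, at 71.0 and 46.1 (log2 0.62, SE 0.27, 95% interval 0.09 to 1.16, unadjusted p = 0.0223), which did not pass per the authors' deposited table. The median SE over interleukin peaks was 0.38 on the log2 scale, with smaller SEs at strong promoters.

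A list of 42 symbols of genes that carry interleukin signals was examined beside the members, and 39 of them had peaks, 288 in all. In AThi HSCs 15 of these peaks at 10 genes rose, or 5.28% against 7.57% of all peaks, and 11 at 9 genes fell, or 3.87% against 2.74%. In ATlo HSCs 13 at 8 genes rose, or 4.58% against 6.88%, and 13 at 10 genes fell, or 4.58% against 2.54%. Of the receptor partners, Osmr, which pairs with gp130 to bind oncostatin M, had a promoter peak that rose by a log2 of 1.03 (SE 0.19, adjusted p = 2.79e-06) and 0.97 (SE 0.19, adjusted p = 1.2e-05) per the authors' deposited tables. A promoter peak of Crlf2, the TSLP receptor, fell in both old groups. Its log2 was -0.46 (SE 0.14, adjusted p = 0.0155) in AThi and -0.44 (SE 0.14, adjusted p = 0.0235) in ATlo HSCs per the authors' deposited tables. At a mean level of 1061, it was among the top 10% of promoter peaks, whose median log2 was -0.22 and -0.30. The SOCS inhibitors, which shut off JAK signalling, gave 4 higher and 2 lower calls among 61 peaks in AThi HSCs, and 3 higher and 5 lower in ATlo HSCs. Of the 60 with an adjusted p these were 6.67% and 3.33% in AThi HSCs, against 7.57% and 2.74% of all peaks. In ATlo HSCs they were 5% and 8.33%, against 6.88% and 2.54%. The promoter of Socs3, the inhibitor that acts on gp130, rose by a log2 of 0.49 (SE 0.15, adjusted p = 0.0139) in AThi HSCs per the authors' deposited table, and its ATlo value of 0.19 (SE 0.15, adjusted p = 0.509) did not pass. Between AThi and ATlo HSCs this promoter had a log2 of 0.31 (SE 0.16), which did not pass. Socs3 had 2 higher peaks in each old group. A distal one rose by 1.65 (SE 0.40, adjusted p = 0.000875) in AThi and 1.73 (SE 0.38, adjusted p = 0.000313) in ATlo HSCs per the authors' deposited tables. Among genes of IL-1 and IL-17 signalling 6 of 113 peaks rose and 4 fell in AThi HSCs, and 5 rose and 4 fell in ATlo HSCs. Of the 112 with an adjusted p these were 5.36% and 3.57% in AThi HSCs, against 7.57% and 2.74% of all peaks. In ATlo HSCs they were 4.46% and 3.57%, against 6.88% and 2.54%. The smallest p in AThi HSCs was at a distal peak of Map3k7, the kinase TAK1. Its log2 was 1.79 (SE 0.23, adjusted p = 5.99e-12) in AThi and 1.39 (SE 0.24, adjusted p = 5.14e-07) in ATlo HSCs per the authors' deposited tables.

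Marker genes were read as a check of the cells. All 8 HSC markers had peaks, and 7 of them, all but Ly6a, had a promoter peak, at levels from 28.6 to 414. The 128 peaks of the 8 markers had a summed implied level of 6514 in young, 6874 in AThi and 6594 in ATlo HSCs. Peaks were also assigned to 6 of 7 T and NK cell markers (18 peaks, summed levels 1781, 1442 and 1338), 3 of 5 B cell markers (10 peaks, 243, 266 and 251) and 7 of 7 myeloid markers (19 peaks, 687, 579 and 542). The B cell genes Ms4a1 and Cd79a and the T cell gene Cd3g had none. At 6 of 6 endothelial and stromal markers the 54 peaks summed to 2197, 2503 and 2500, and 9 rose and 2 fell in each old group, or 17% and 3.77%. Of the HSC marker peaks 16 rose and 1 fell in AThi HSCs, or 12.6% and 0.787%, and 10 rose and 2 fell in ATlo HSCs. Of the T and NK marker peaks 1 rose and 2 fell in AThi HSCs, and 4 fell in ATlo HSCs. All of these calls were at Klrb1c, which held 10 of the 18 peaks. Over all peaks the shares were 7.57% higher and 2.74% lower in AThi HSCs and 6.88% and 2.54% in ATlo HSCs. Mast cell and basophil markers had 5 peaks, at 108, 129 and 125. The part of other cell types in the interleukin results was not tested.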

How the data were processed

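ATAC-seq was measured in 5 young, 3 old AThi and 3 old ATlo HSC libraries. Per the submitters' processing notes, the tools were BWA, Trim Galore with cutadapt, MACS2 for peaks, ChIPseeker for annotation, and featureCounts with DESeq2 for the comparisons; versions, duplicate handling, transposase shifts and the merging of peaks are not given in the sources used here, and these set which peaks exist and how wide they are. The authors deposited 3 tables over the same 94410 peaks. The authors' mean level is a signal value, the mean normalised count over the libraries. Their deposited log2 fold changes carry SEs on the log2 scale, the Wald statistic is the authors' score, and the p-values, raw and adjusted by Benjamini-Hochberg, are as deposited. The 3 comparisons come from 1 fit, since their log2 changes add up to within 1.02e-14. An adjusted p was absent for 1831 peaks, 3 of them interleukin peaks, which were not called.

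Gene identifiers were turned into symbols with the RefSeq GRCm38.p6 table, which matched 20791 of 20810. Peak coordinates were taken as mm39, because the start or end of only 1 of the 73 interleukin genes equalled that table. Promoter sequences carry GRCm38.p6 coordinates, and their windows were matched to the interleukin genes by gene identifier, not by position. A window can therefore stand at another start site than the peak, as it does for Il1r2. Peaks carry the nearest gene in the authors' annotation, which measures neither expression nor regulation of that gene. Group levels were derived from the mean and the 2 log2 differences, weighting groups by 5, 3 and 3 libraries. Intervals of 95% are 1.96 SE on each side. The tables held 0 columns of values per sample, so depth is unknown and no model was refitted; the scripts (Python 3.11.15, pandas 2.3.3) were tested on simulated data.

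Peaks were named by rule: up to 15 called peaks per direction and comparison by p, the strongest promoter peaks of 21 listed genes, the 5 highest levels, the 5 genes with most peaks, and, where under 5 passed, the 5 of smallest p per direction. Of this last set, for AThi against ATlo, values are given for the 4 peaks at an unadjusted p under 0.05. The Il1rl2 peak in intron 9, the Il1rn promoter, the Il12rb2 peak over its start, the Il15 peak in Inpp4b, the promoters ranked per kb, the pathway genes given by value and the genes under other observations were picked after their values were seen. Members, lists and tests were chosen with earlier results of these data known. A gene of the signalling list is not reported here by name or value.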

Additional observations from a re-analysis of the deposited data

How the results depend on the processing

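For AThi HSCs, 21 higher and 15 lower calls became 12 and 5 at an adjusted p under 0.01, 14 and 8 with a change of at least 2-fold, 43 and 6 with the median of the strongest promoters at 0, and 4 and 4 with promoter peaks alone. For ATlo HSCs, 18 and 10 became 11 and 1, 12 and 3, 43 and 1, and 4 and 2 in the same order. Adjusting over every peak, a mean level of at least 10, the median of all peaks at 0, peaks within 50 kb, and leaving out peaks inside other genes each stayed within 1.5 times of every count. AThi against ATlo gave 0 calls under each. No call changed direction. No paired analysis was possible because the tables hold no values per library; leaving out a library, a refit with other size factors and the pair as a block were not run for the same reason. With no depth known for any library, precision rests on the SEs, and a peak whose 95% interval holds 0 could not be told from no difference.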

Other observations

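Of the 360 interleukin peaks, 49 lay over 50 kb from the start site of the gene they were assigned to, and 1 of them rose in AThi HSCs and 2 in ATlo HSCs. Of the 48 with an adjusted p these were 2.08% and 4.17%, against 7.57% and 6.88% of all peaks at any distance. A promoter peak was present at 51 of the 73 genes, and 14 genes held a single peak. Il33, which encodes an alarmin of the IL-1 family, had 5 peaks at mean levels of 8.29 to 36.8, none of which passed in AThi HSCs. Il7, a lymphoid growth factor made by stromal cells, had a single peak, a distal one, with a log2 of -0.12 (adjusted p = 0.815) in AThi HSCs in the authors' deposited table. Il3 and Il5, growth factors for progenitors and eosinophils, had 3 peaks between them, none of which passed in AThi HSCs.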
